A study of Mus musculus with 6 samples.

Results

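Chemokines and their receptors were taken as every gene on the array whose name began with Ccl, Cxcl, Cx3cl, Xcl, Ccr, Cxcr, Cx3cr, Xcr or Ccrl followed by a number, with or without a final letter. This gave 56 genes, represented by 71 probes, of 28909 named genes and 55681 probes on the array. There were 35 ligand genes and 21 receptor genes, and 12 of the 56 genes had more than 1 probe. Gene expression had been measured with 1-colour Agilent arrays in total RNA from the hearts of male C57BL/6 mice. The study compared 3 sham samples with 3 samples taken after 28 days of tail-suspension, which lifts the hindlimbs off the floor and is used to simulate weightlessness. The sham mice were not suspended and were housed and fed alongside the others. The labels give an age of 10 weeks at tail-suspension in the protocol and of 11 weeks for every animal, and no genetic change or drug in either group. They do not say that each sample came from a separate mouse, so the p-values measure the spread between these samples.

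Chemokines are small secreted proteins that guide leukocytes along a gradient, and they are grouped as CC, CXC, CX3C or XC by the spacing of their conserved cysteines. They act through G protein-coupled receptors on the migrating cell, and many ligands share receptors. In the heart, resident macrophages, fibroblasts, endothelial cells and recruited leukocytes are known sources of chemokines, and atypical receptors bind the ligands and remove them without starting migration.

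All 6 arrays lay on 1 slide. No spot was saturated, and between 50.9% and 53.4% of all probes were well above background on an array, which is the scanner software's call that a spot is brighter than its surroundings. As a check of the label of cardiac muscle, the cardiomyocyte markers Ryr2, Tnnt2 and Myh6 were detected on all 6 arrays. Of the 8 markers on this list only Myl7 was not, being detected on 1 sham and 1 tail-suspended array. A probe entered the limma test when all 3 arrays of either group detected it, and its level is the log2 intensity after subtraction of the array's 75th percentile. An adjusted p is after Benjamini-Hochberg over all 28030 tested probes, with a threshold of 0.05, and the brightest tested probe stands for a gene with several. With 3 arrays in each group, the smallest two-sided p of an exact permutation test of a single gene is 0.1.

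Of the 56 chemokine and receptor genes, 30 were well above background on all 6 arrays, 8 on some arrays and 18 on none. Between 32 and 34 of them were detected on each array. Detected on all arrays were 20 of the 35 ligand genes and 10 of the 21 receptor genes. Among the 18 genes without a detected signal were the ligands Ccl1, Ccl3, Ccl17, Ccl20 and Ccl22 and the receptors Ccr1, Ccr3, Ccr4, Ccr6, Cxcr1, Cxcr5 and Xcr1. The rest of the 18 were Ccl26, Ccl28, Cxcl3, Cxcl15, Cxcl17 and Xcl1. For these genes the arrays give only a bound, and their expression at a lower level was not detectable. By the scanner's less strict call of a positive and significant signal, 35 of the 56 genes were detected on all 6 arrays.

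**Figure D1:**
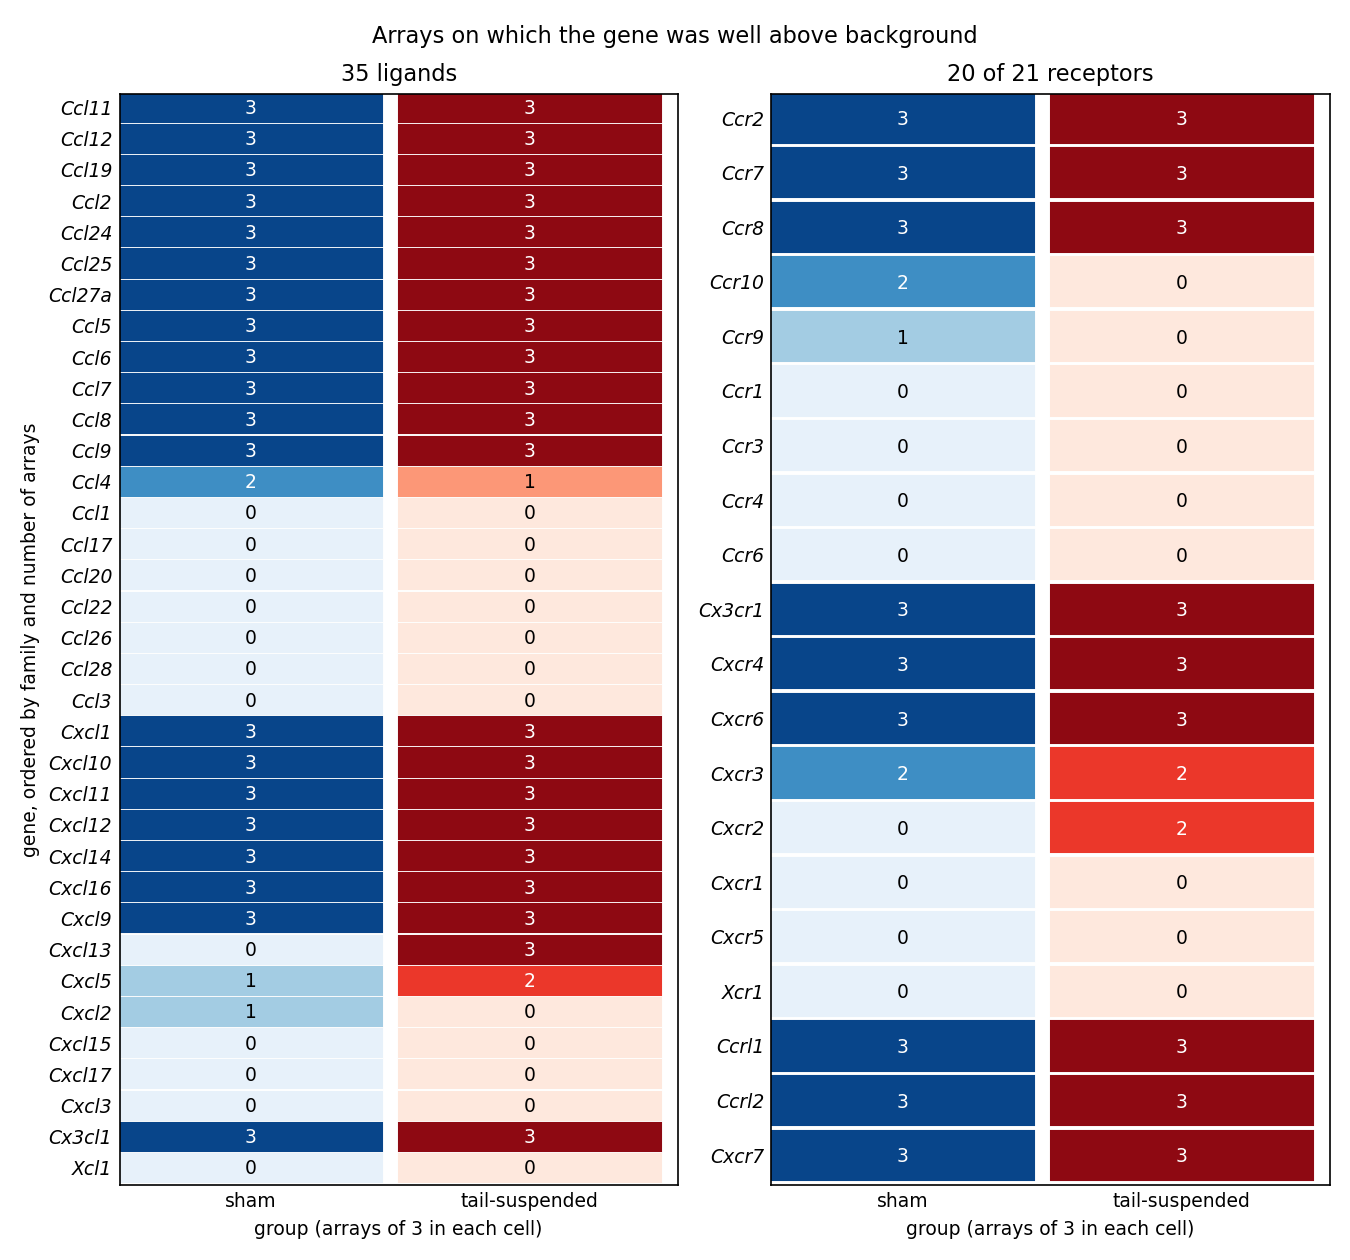
Number of arrays, of 3 in each group, on which each of the 35 ligand genes (left) and 20 of the 21 receptor genes (right) was well above background, read for each gene from the probe used in the test or otherwise from its most often detected probe. Cxcl13 is the gene with 0 sham and 3 tail-suspended arrays, and Cxcr2 has 0 and 2.

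The 60-base probes of 5 genes are shown because the largest changes and a disagreement between probes rest on them. They are printed as the files give them, with mm9 coordinates from the files. Capitals mark bases within a run of 20 that also occurs, on either strand, in the promoter windows described further on.
Ccl8 (chr11:81930108-81930167, plus strand): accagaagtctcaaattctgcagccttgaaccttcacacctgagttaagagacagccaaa
Cxcl13 (chr5:96389861-96389920, plus strand): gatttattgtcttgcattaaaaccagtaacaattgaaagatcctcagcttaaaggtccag
Cx3cr1, first probe (chr9:119957811-119957870, minus strand): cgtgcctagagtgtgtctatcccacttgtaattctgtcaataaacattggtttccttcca
Cx3cr1, second probe (chr9:119959018-119959077, minus strand): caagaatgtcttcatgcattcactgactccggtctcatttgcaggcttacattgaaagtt
Cxcl9, first probe (chr5:92752191-92752250, minus strand): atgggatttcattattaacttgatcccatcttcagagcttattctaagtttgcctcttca
Cxcl9, second probe (chr5:92752796-92752855, minus strand): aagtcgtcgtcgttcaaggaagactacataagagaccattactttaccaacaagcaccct
Cxcl11, first probe (chr5:92788567-92788626, minus strand): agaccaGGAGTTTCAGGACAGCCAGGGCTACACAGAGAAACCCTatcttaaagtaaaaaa
Cxcl11, second probe (chr5:92788640-92788699, minus strand): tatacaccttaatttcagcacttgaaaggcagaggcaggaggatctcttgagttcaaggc
The probes of Ccl8, Cxcl13, Cx3cr1 and Cxcl9 share no run of 20 bases with any of 32851 promoter windows. The first Cx3cr1 probe shares such a run with 1 probe named for another gene on the array, and the second with none. The first Cxcl11 probe shares 1 with 22 of these windows and with 7 probes named for other genes, so its signal cannot be ascribed to Cxcl11 alone. The second Cxcl11 probe shares none, but inexact matches were not searched, so it is not shown to be specific either. Between the probes of different chemokine or receptor genes the longest shared run was 14 bases.

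Between tail-suspended and sham mouse hearts, 9 of the 31 tested chemokine and receptor genes passed the threshold. These are 29.0%, beside 21.2% of the 17138 genes tested on the whole array. Counted by probe, 13 of their 41 tested probes passed, beside 20.4% of all tested probes. The 5 higher genes were Cxcl13, Ccl8, Ccl6, Ccl9 and Ccr8, beside a background of 10.6% of genes higher. The 4 lower genes were Cx3cr1, Cxcl9, Ccl24 and Ccl2, beside 10.5% lower. All of these but Ccr8 and Ccl2 also changed at least 2-fold, which makes 7 of 31 genes beside 4.57% of all genes tested. The median log2 fold change of the 31 genes was 0.03, and that of all genes tested was -0.01. The 2 groups did not overlap for 19 of the 31 genes (61.3%), beside 46.5% of all genes tested, and 10 of these 19 did not pass the threshold. In whole heart tissue, more cells of a type and more RNA per cell cannot be told apart.

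**Figure D2:**
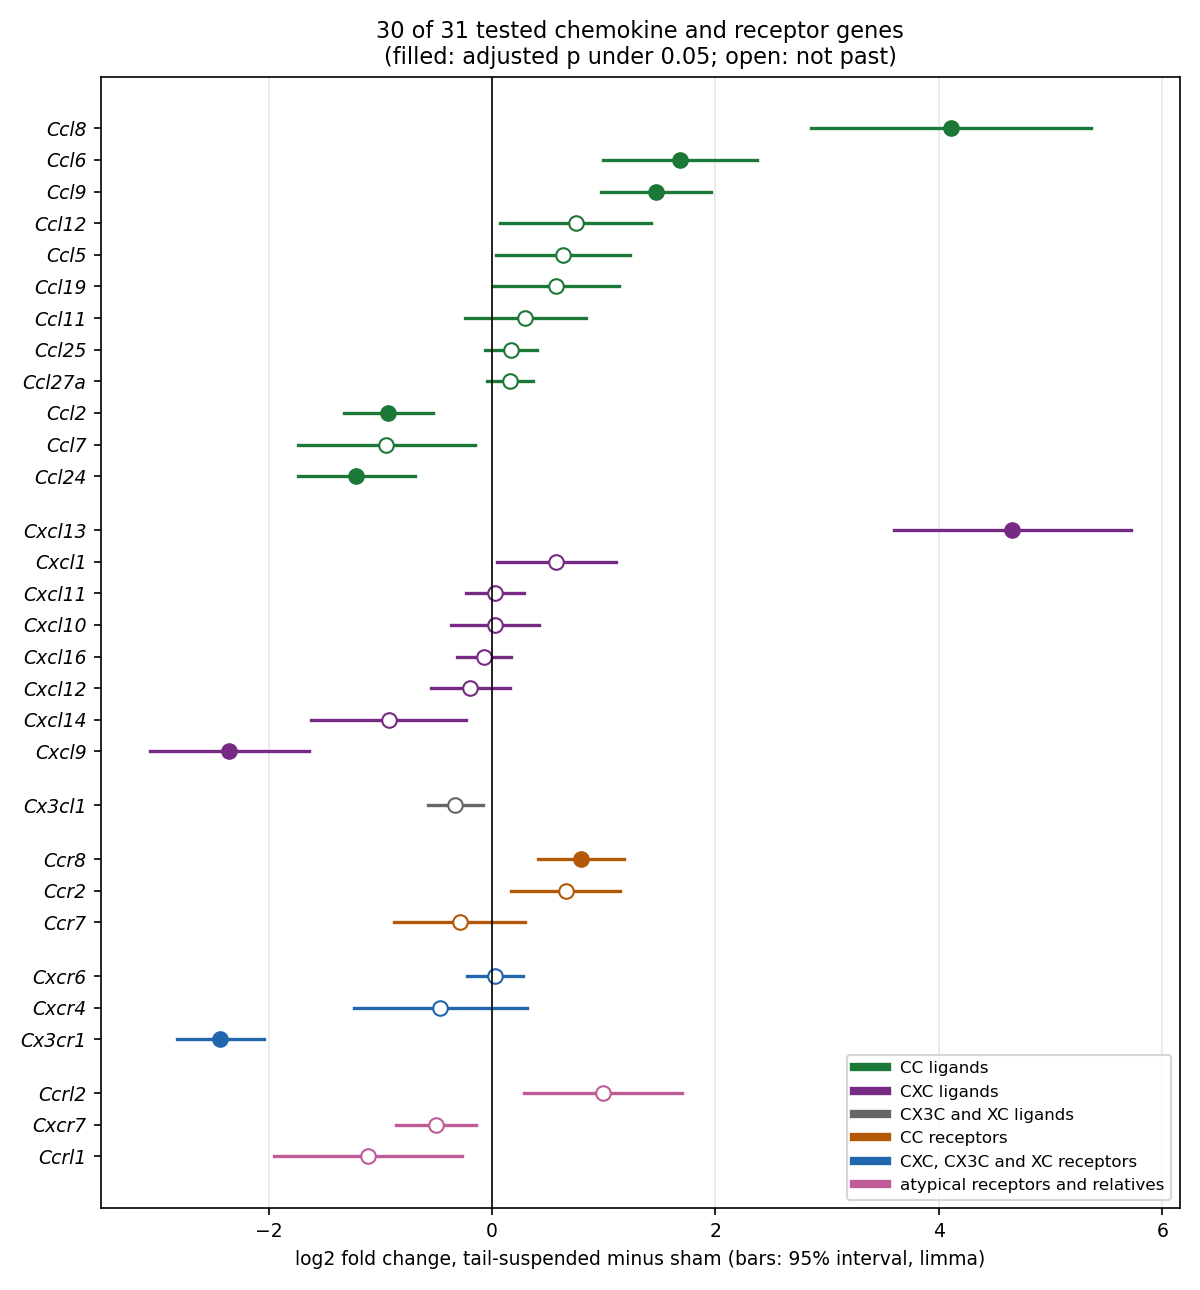
Log2 fold change (x axis, tail-suspended minus sham) with its 95% interval from limma for 30 of the 31 tested genes, ordered by family. Filled points passed an adjusted p of 0.05, with Cxcl13 at 4.66 and Ccl8 at 4.11 farthest to the right and Cx3cr1 at -2.43 and Cxcl9 at -2.35 farthest to the left.

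Of 20 CC ligand genes 12 were tested, and 3 rose and 2 fell. Ccl8, a monocyte chemoattractant that in the mouse signals through CCR8, had processed intensities of 68.2, 53.3 and 115.3 in the sham hearts. It read 1764, 718.9 and 2630 in the tail-suspended hearts. Every tail-suspended heart was above every sham heart, although the spread among the tail-suspended hearts was wide (SD 0.98 on the log2 scale, n = 3). The log2 fold change was 4.11 (SE 0.52, adjusted p = 0.00588, limma), or 17.2-fold.

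Ccl6 and Ccl9, related ligands made by myeloid cells that act on CCR1, also rose. Ccl6 had intensities of 1191, 602.2 and 649.5 in sham hearts and 3102, 2245 and 3406 in tail-suspended hearts. For Ccl9 the sham hearts read 585.9, 359.5 and 486.4 and the tail-suspended hearts 1619, 1305 and 1603. The groups overlapped for neither gene. Ccl6 rose 3.20-fold (log2 fold change 1.68, SE 0.29, adjusted p = 0.0136, limma) and Ccl9 2.77-fold (1.47, SE 0.21, adjusted p = 0.00768). Ccl6 did not pass without sham replicate 2 (1.48, adjusted p = 0.0505) or without tail-suspension replicate 3 (1.58, adjusted p = 0.0510), and its adjusted p ran from 0.00157 to 0.0973 over the alternatives.

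Ccl24 and Ccl2 fell. Ccl24, or eotaxin-2, attracts eosinophils through CCR3, and its intensities were 265.5, 204.4 and 239.4 in sham and 122.0, 151.1 and 87.1 in tail-suspended hearts. Its log2 fold change was -1.22 (SE 0.22, adjusted p = 0.0156, limma). Ccl2, the main ligand of the monocyte receptor CCR2, was measured by a probe with 10 spots and had intensities of 318.4, 339.9 and 325.8 in sham hearts. In tail-suspended hearts they were 211.4, 236.4 and 158.7, below all sham values, with a log2 fold change of -0.93 (SE 0.17, adjusted p = 0.0152, limma). The sham hearts were almost alike in Ccl2, with a log2 level of 0.06 ± 0.07 (SD, n = 3) after subtraction of the array's 75th percentile, against -0.87 ± 0.32 (SD, n = 3) after tail-suspension. Ccl24 did not pass without sham replicate 1 (-1.15, adjusted p = 0.0539, from 0.00330 to 0.156 over the alternatives), nor Ccl2 without sham replicate 2 (-0.91, adjusted p = 0.0613, from 0.00492 to 0.161).

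The other 7 tested CC ligands did not pass. Ccl12, a further CCR2 ligand, had a log2 fold change of 0.75 (adjusted p = 0.106, limma). The T cell attractant Ccl5 had 0.64 (adjusted p = 0.114), with all tail-suspended values above all sham values for both. Ccl7, also a CCR2 ligand, had -0.95 with groups that overlapped (adjusted p = 0.0865). The eotaxin Ccl11 had 0.30 (adjusted p = 0.376) and the thymus-homing ligand Ccl25 had 0.17 (adjusted p = 0.254). Ccl19, a ligand of CCR7, was measured by 3 probes with log2 fold changes of 0.57, 0.24 and 0.18, none past the threshold. Ccl27a, a ligand of CCR10, was the CC ligand whose probes disagreed: 2 of its probes had 0.16 and 0.27 (adjusted p = 0.214 and 0.0517) and the third had 0.54 (adjusted p = 0.0205). Of the untested CC ligands, Ccl4 was detected on 2 sham arrays and 1 tail-suspended array and the rest on none.

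Among 13 CXC ligand genes 8 were tested, and 1 rose and 1 fell. Cxcl13 is the B cell attractant of lymphoid follicles. Its probe had intensities of 4.0, 3.9 and 3.1 in the sham hearts and was not detected there. In the tail-suspended hearts it read 113.3, 198.2 and 52.7 and was well above background on all 3 arrays. It entered the test only through this group. Cxcl13 was the only tested member with a signal on every array of one group and none of the other when each gene was read from 1 probe. Against the lowest signal well above background on each sham array it was at least 6.04-fold higher, and the fitted log2 fold change was 4.66 (SE 0.44, adjusted p = 0.00282, limma). The fitted value depends on how background was corrected and was 1.15 under normexp correction (adjusted p = 0.012), within a range of adjusted p over the alternatives of 0.00078 to 0.0397.

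Cxcl9, an interferon-gamma-induced ligand of CXCR3, a receptor of activated T cells, fell. Its first probe had intensities of 279.7, 247.0 and 360.2 in sham and 51.5, 106.7 and 52.8 in tail-suspended hearts. The second probe read 89.6, 84.9 and 111.1 in sham hearts and 18.9, 48.5 and 17.7 in tail-suspended hearts, where 2 of 3 arrays were well above background. By both probes, printed above, the groups did not overlap and tail-suspension replicate 2 was the highest of its group. The log2 fold changes were -2.35 (SE 0.30, adjusted p = 0.00581, limma) and -2.11 (SE 0.37, adjusted p = 0.0148).

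The related CXCR3 ligands had fold changes nearer to 0. Cxcl10 had intensities of 42.2, 51.1 and 46.8 in sham and 46.5, 49.8 and 71.4 in tail-suspended hearts, with a log2 fold change of 0.03 (95% interval -0.37 to 0.42). The first Cxcl11 probe, which shares bases with many promoter windows, had 0.03 (95% interval -0.23 to 0.29) and the second had 0.45 (adjusted p = 0.0323, limma). In sham hearts the first probe read 136800, 133300 and 107600 and the second 2616, 2821 and 2277. The signal of the first cannot be ascribed to Cxcl11 alone. Whether the second probe measures Cxcl11 alone was not tested. Whether Cxcl9 differed from Cxcl10 and Cxcl11 in its change was not tested.

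Of the remaining CXC ligands, Cxcl14, made by epithelial and stromal cells, had a log2 fold change of -0.93 (adjusted p = 0.0659, limma) with all tail-suspended values below all sham values. The neutrophil attractant Cxcl1 had 0.58 (adjusted p = 0.110). Cxcl12, which retains progenitors and leukocytes through CXCR4, had -0.20 (95% interval -0.55 to 0.16), and Cxcl16, the ligand of CXCR6, had -0.07. Cxcl5, another neutrophil attractant, was detected on 1 sham array and 2 tail-suspended arrays, and Cxcl2 on 1 sham array. Cx3cl1, the membrane-bound ligand of CX3CR1, had intensities of 963.7, 834.5 and 810.1 in sham and 757.4, 759.1 and 888.9 in tail-suspended hearts. After subtraction of the array's 75th percentile its groups did not overlap, and the log2 fold change was -0.33 (SE 0.10, adjusted p = 0.0655).

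Cx3cr1, the receptor of Cx3cl1 on monocytes and many tissue macrophages, had the largest fall among the 10 tested receptor genes. The first probe had intensities of 559.3, 433.8 and 442.9 in sham and 82.7, 129.7 and 98.4 in tail-suspended hearts. The second probe read 80.4, 57.1 and 61.1 in sham hearts and 8.87, 13.6 and 9.40 in tail-suspended hearts, where it was not well above background on any array. The 2 probes lie over 1 kb apart on the minus strand of chromosome 9, and both fell with no overlap of the groups. By the first probe the log2 fold change was -2.43 (SE 0.16, adjusted p = 0.00160, limma), or 5.41-fold lower. By the second probe the level was at least 4.54-fold lower (adjusted p = 0.00150).

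Ccr8, a receptor of skin-homing and type 2 T cells that in the mouse binds Ccl1 and Ccl8, was the only CC receptor gene past the threshold. Its intensities were 20.03, 18.51 and 21.49 in sham and 39.1, 33.8 and 49.1 in tail-suspended hearts, with no overlap. The log2 fold change was 0.80 (SE 0.16, adjusted p = 0.0205, limma). The sham signals were close to the faintest called well above background, between 14.4 and 15.5 on those arrays, and under normexp correction the log2 fold change was 0.02 (adjusted p = 0.937, from 0.00526 to 0.937 over the alternatives). Leaving out sham replicate 1 or 2 or tail-suspension replicate 1 or 3 gave 0.67 to 0.78 and adjusted p from 0.0602 to 0.0795. A second Ccr8 probe was not well above background on any array.

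Ccr2, which brings monocytes out of the bone marrow, had a log2 fold change of 0.66 with no overlap (adjusted p = 0.0636, limma), but 0.05 under normexp correction (adjusted p = 0.803, from 0.0348 to 0.803 over the alternatives). Ccr7, which guides T cells and dendritic cells to lymph nodes, had -0.29 (adjusted p = 0.427). Cxcr4, the receptor of Cxcl12, had -0.46 with a 95% interval of -1.24 to 0.31, and Cxcr6 had 0.03. Cxcr2, the neutrophil receptor of Cxcl1, Cxcl2 and Cxcl5, was undetected in the sham hearts, with intensities of 4.90, 3.17 and 3.20. It read 47.8, 19.6 and 22.8 in tail-suspended hearts and was well above background on 2 of 3, so that it was not tested. Since not every tail-suspended value was well above background, no lower bound on its fold change is given. Cxcr3 was detected on 2 arrays of each group, Ccr10 on 2 sham arrays and Ccr9 on 1 sham array.

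All 3 atypical or related receptor genes were detected on every array, and none passed, although their groups did not overlap. Ccrl1, which removes Ccl19 and Ccl25, had log2 fold changes of -1.11 (adjusted p = 0.0679, limma) and -0.80 (adjusted p = 0.104) by its 2 probes. Cxcr7, which removes Cxcl12, had -0.50 (adjusted p = 0.0602). Ccrl2, which binds chemerin, had intensities of 357.6, 350.6 and 386.7 in sham and 474.5, 1115 and 1119 in tail-suspended hearts. Its log2 fold change was 0.99 (adjusted p = 0.0592), and tail-suspension replicate 1 lay nearer to the sham hearts than to the other replicates of its group in intensity.

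**Figure D3:**
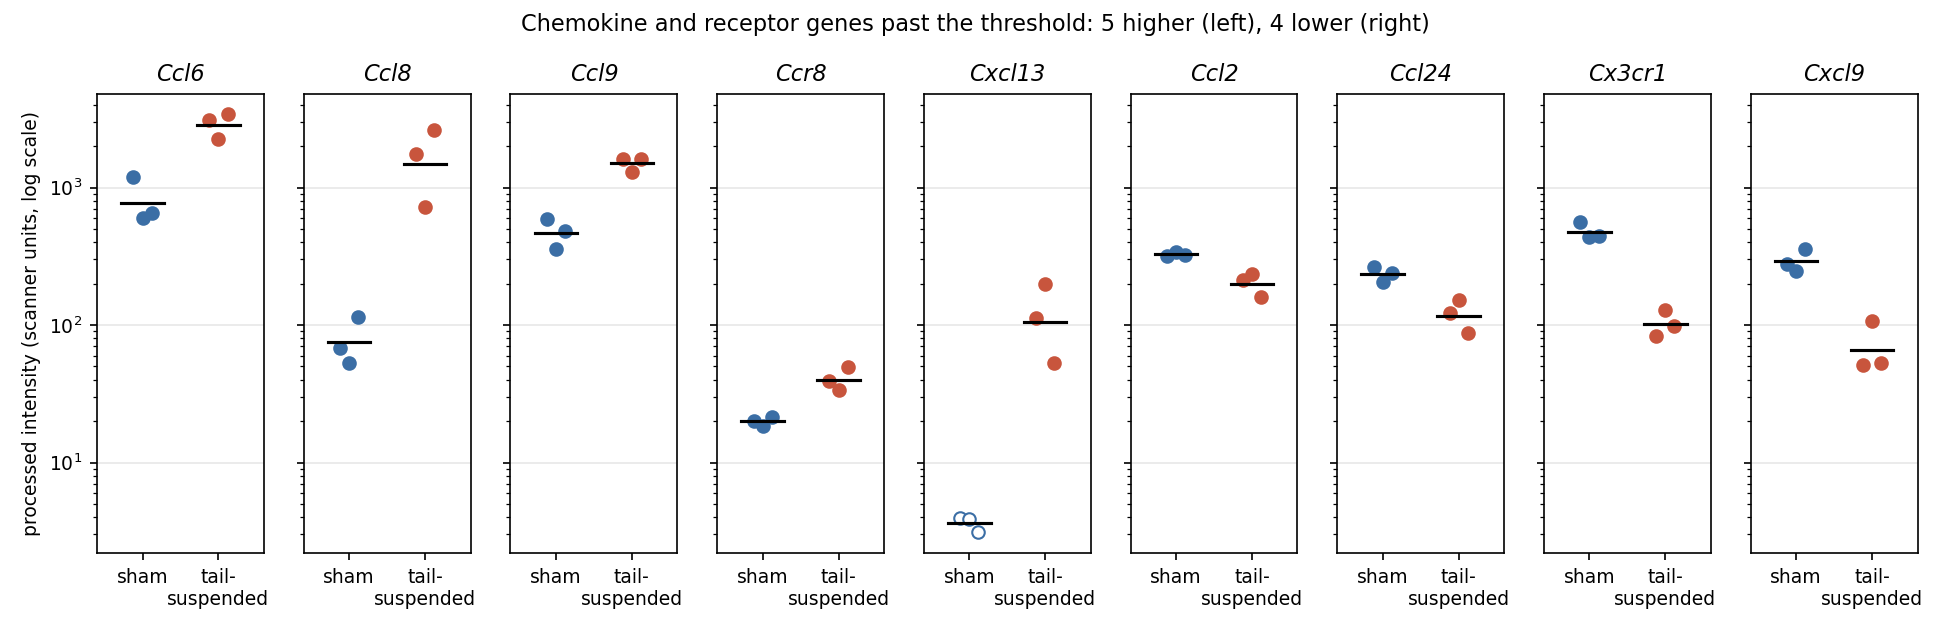
Processed intensity (y axis, scanner units on a log scale) of the 9 genes past the threshold in each of 3 sham and 3 tail-suspended hearts, with a line at the geometric mean of each group. Open points are not well above background. No gene's groups overlap, and levels are to be compared within a gene, not between genes.

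Ligands and receptors that are known to pair were set side by side. Ccl8 and Ccr8 both rose, by 4.11 and 0.80 on the log2 scale, while Ccl1, the other ligand of CCR8, was not detected. Ccr8 was near background, had 0.02 under normexp correction and missed the threshold under 8 alternatives. Cx3cr1 fell by 2.43 and its ligand Cx3cl1 did not pass at -0.33. Cxcl13 rose in hearts in which its receptor gene Cxcr5 was not detected on any array. Cxcl9 fell, and its receptor gene Cxcr3 was near the limit of detection, with intensities of 18.98, 13.08 and 19.3 in sham and 25.4, 20.4 and 27.0 in tail-suspended hearts. Ccl6 and Ccl9 rose while Ccr1 was not detected. Ccl2 fell and Ccr2 did not pass, and Ccl24 fell with Ccr3 not detected. Among the 4 monocyte chemoattractant genes, 1 rose (Ccl8), 1 fell (Ccl2) and Ccl7 and Ccl12 lay on opposite sides of 0 without passing.

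Many chemokine genes are neighbours. By the mm9 positions of their probes, 29 of the 56 genes lay in 6 clusters of at least 3 genes with gaps under 500 kb. The cluster from Ccl2 to Ccl1 spans 140 kb at chr11:81850650-81990227. In order along it, Ccl2 had a log2 fold change of -0.93, Ccl7 -0.95, Ccl11 0.30, Ccl12 0.75 and Ccl8 4.11, and Ccl1 was not detected, so 1 gene rose and 1 fell within the same cluster. In the cluster from Ccl5 to Ccl4, 139 kb at chr11:83339296-83478111, the adjacent Ccl9 and Ccl6 rose, Ccl5 did not pass, and Ccl3 and Ccl4 were not tested. Cxcl9 fell beside Cxcl10 and Cxcl11 within 36 kb at chr5:92752191-92788626.

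**Figure D4:**
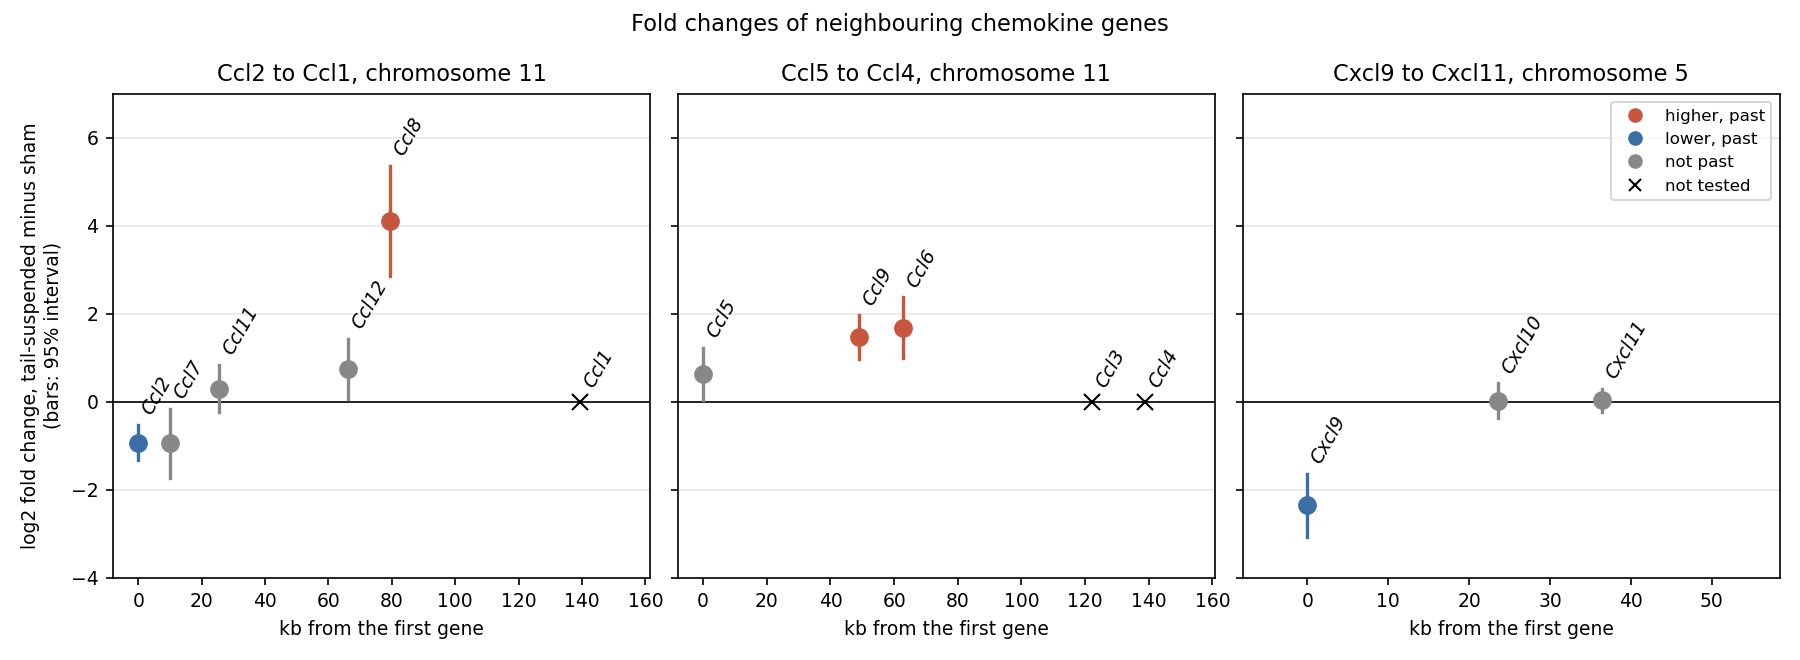
Log2 fold change with its 95% interval (y axis, tail-suspended minus sham) against distance in kb from the first gene (x axis) in 3 gene clusters. Crosses are genes not tested. In the first cluster the values run from -0.93 at Ccl2 to 4.11 at Ccl8, in the second Ccl9 and Ccl6 are at 1.47 and 1.68, and in the third Cxcl9 is at -2.35. Cxcl11 is drawn by its first probe at 0.03, and its second probe, at 0.45, is not drawn.

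The promoters of the 4 ligand genes that rose are shown because these genes changed in the same direction. They are windows of 300 bases around the start of the gene from RefSeq, on GRCm38.p6, a later build than that of the probes. Capitals mark matches, on either strand, to the TATA box letters TATAAA or to the NF-kB motif.
Ccl6 (chr11:83593038-83593337, minus strand): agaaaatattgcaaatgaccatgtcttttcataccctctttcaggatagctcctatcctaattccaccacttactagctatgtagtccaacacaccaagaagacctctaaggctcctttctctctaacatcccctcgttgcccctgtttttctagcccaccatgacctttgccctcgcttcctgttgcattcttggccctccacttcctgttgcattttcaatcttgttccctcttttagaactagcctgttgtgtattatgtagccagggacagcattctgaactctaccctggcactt
Ccl9 (chr11:83578587-83578886, minus strand): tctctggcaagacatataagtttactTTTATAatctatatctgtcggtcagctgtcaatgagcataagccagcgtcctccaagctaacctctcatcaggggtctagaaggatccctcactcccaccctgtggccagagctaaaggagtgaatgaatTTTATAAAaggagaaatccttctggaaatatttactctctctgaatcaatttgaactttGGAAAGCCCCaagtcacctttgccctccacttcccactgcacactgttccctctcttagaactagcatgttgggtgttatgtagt
Ccl8 (chr11:82114935-82115234, plus strand): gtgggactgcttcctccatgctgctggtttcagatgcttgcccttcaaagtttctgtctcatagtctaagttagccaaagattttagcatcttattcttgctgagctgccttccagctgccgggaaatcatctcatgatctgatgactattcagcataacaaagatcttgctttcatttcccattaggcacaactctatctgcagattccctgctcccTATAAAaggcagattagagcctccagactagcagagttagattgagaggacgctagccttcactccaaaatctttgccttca
Cxcl13 (chr5:95956689-95956988, plus strand): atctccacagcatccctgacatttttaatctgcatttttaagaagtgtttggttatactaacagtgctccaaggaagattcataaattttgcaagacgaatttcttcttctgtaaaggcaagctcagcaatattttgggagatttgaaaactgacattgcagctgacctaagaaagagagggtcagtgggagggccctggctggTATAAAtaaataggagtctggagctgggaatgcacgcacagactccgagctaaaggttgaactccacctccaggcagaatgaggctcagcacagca
The TATA box letters occurred in the windows of Ccl9, Ccl8 and Cxcl13 and in 13.6% of all 32851 windows. The NF-kB motif occurred in that of Ccl9 and in 4.5% of all windows. The GAS motif TTCNNNGAA, found in 8.3% of all windows, and the ISRE motif (GAAA, any 2 bases, GAAA), in 3.4%, occurred in none of the 4. The NF-kB motif was present in 10 of the 39 chemokine and receptor genes that had a window, and in 1 of the 7 that passed the threshold and had one. Among the lower genes, the window of Cxcl9 held the TATA box letters and that of Cx3cr1 held none of the 4 motifs. Ccl2 and Ccl24 had no window.

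Genes around the chemokine system were read from lists. Of all genes tested on the array, 10.6% rose and 10.5% fell, and the counts of each list are to be read beside these shares. Of 23 tested genes that carry the signal of chemokine receptors, 3 rose and none fell. These were Pik3r5, a regulatory subunit of phosphoinositide 3-kinase gamma (log2 fold change 1.55, adjusted p = 0.00384, limma), the receptor kinase Grk5 (0.82, adjusted p = 0.0102) and the protein kinase Prkcd (0.66, adjusted p = 0.00674). Of 12 tested genes that cleave or present chemokines, 3 fell and none rose. They were Adam17 (-0.66) and Adam10 (-0.41), the proteases that shed Cx3cl1 and Cxcl16, and Sdc1 (-0.45), a heparan sulfate carrier. Among 18 tested inducers of chemokine genes, Nfkbia (1.13), Tlr4 (0.72) and Il17ra (0.58) rose and Relb (-0.55) fell. Il17ra was undetected in all sham hearts and entered the test only through the tail-suspended group. Il6, Ifng, Il1a, Il17a and Lta were not detected on any array. With 1 array left out in turn, 3 or 4 of the signalling genes rose, but 0 to 2 of the cleavage and presentation genes fell and 0 to 4 inducers rose. Of 11 tested adhesion molecule genes only Selplg passed (0.57, adjusted p = 0.0471). Among 6 tested chemokine-related genes outside the naming rule, Rarres2, which encodes chemerin, the ligand bound by Ccrl2, rose (0.70, adjusted p = 0.0159), and the platelet chemokine genes Ppbp (1.05, adjusted p = 0.0662) and Pf4 (-0.22) did not pass. The array name Gm13304, which RefSeq pairs with Ccl21 copies, fell by 0.57 on the log2 scale (adjusted p = 0.0416), and its probe cannot separate near-identical copies.

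Markers of leukocytes were read beside the chemokines because many chemokine genes are expressed by leukocytes. Of 8 tested neutrophil markers 5 rose, beside 10.6% of all genes tested. S100a9 was among them, with 229.3, 195.6 and 135.8 in sham and 12700, 2291 and 4793 in tail-suspended hearts. Retnlg, Ltf and Mpo, also among the 5, were undetected in all sham hearts and entered the test only through the tail-suspended group. Camp (1.97) and Elane (-0.30) did not pass. The summed intensity of the 10 neutrophil markers was 46460 to 53230 in sham and 78160 to 82430 in tail-suspended hearts. Most of this sum was Csf3r, at 45760, 52620 and 51370 in sham and 63180, 78970 and 71140 in tail-suspended hearts, which did not pass (0.30, adjusted p = 0.0926, limma). The defining marker Ngp was undetected in all sham hearts. Of 11 tested macrophage markers 1 rose, Cd163, which was undetected in all sham hearts and entered the test only through the tail-suspended group. The summed intensity of the 12 macrophage markers was 10820 to 14590 in sham and 14200 to 22590 in tail-suspended hearts. Its largest part was Csf1r, at 7984, 5992 and 6113 in sham and 7733, 7279 and 10500 in tail-suspended hearts. Csf1r did not pass (0.13, adjusted p = 0.612, limma). The sums of both lists were not scaled to the array's 75th percentile, which was 302 to 322 in sham and 341 to 376 in tail-suspended hearts. The part of the neutrophil and macrophage markers in the changes of Ccl6, Ccl8, Ccl9, Cxcl13 and Cx3cr1 was not tested. With 1 array left out in turn, 4 to 8 neutrophil markers and 0 to 5 macrophage markers rose. Of 6 tested B cell markers 2 fell, beside 10.5% of all genes tested, and the rest did not pass. Cd79a was among the 2 (-0.86, adjusted p = 0.0196, limma), and with 1 array left out 1 or 2 fell. The T cell markers Cd4 (-0.27, adjusted p = 0.0718, limma) and Cd3e (-0.17, adjusted p = 0.348) did not pass. Among the dendritic cell markers, Cd209a (1.30) and Flt3 (1.25) rose of 5 tested, and 0 to 2 rose with 1 array left out. Both were detected on only 1 sham array and entered the test through the tail-suspended group. Itgax (0.13), Zbtb46 (0.02) and Batf3 (-0.36) did not pass. Clec9a was detected on 2 sham arrays and on no tail-suspended array, and was not tested. Of 4 tested mast cell and eosinophil markers 1 fell, Kit at -1.99, and Epx and Prg2 were not detected. Haemoglobin genes were read as a measure of blood, and Hba-a1 had a log2 fold change of -1.50 (adjusted p = 0.0506) and Hbb-b1 of -1.54 (adjusted p = 0.0536), both just outside the threshold. With 1 array left out, 0 to 3 erythroid markers were lower, the 3 being those without tail-suspension replicate 2.

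Array position was partly tied to the groups. The first row of the slide held the 3 sham arrays together with tail-suspension replicate 1, and the second row held the other two. Within the first row, tail-suspension replicate 1 differed from the mean of the sham arrays by 4.85 for Cxcl13, 4.44 for Ccl8, 1.88 for Ccl6, 1.67 for Ccl9 and 0.85 for Ccr8. The corresponding differences were -2.64 for Cx3cr1, -2.62 for Cxcl9, -1.06 for Ccl24 and -0.75 for Ccl2. With the row as a block, Cxcl13 and Cx3cr1 passed, and the other 7 did not. Ccl12, which did not pass in the main fit, passed with the block (1.41). Calls fell over the whole array too, to 320 higher and 177 lower of 28030 tested probes, from 3023 and 2683. Since the second row held no sham array, the blocked values rest on tail-suspension replicate 1 alone, which is assumed to vary like the other samples. Under normexp background correction the counts were 5 higher and 7 lower instead of 5 and 4. Over all 28030 tested probes they were 2477 and 2634 instead of 3023 and 2683.

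**Figure D5:**
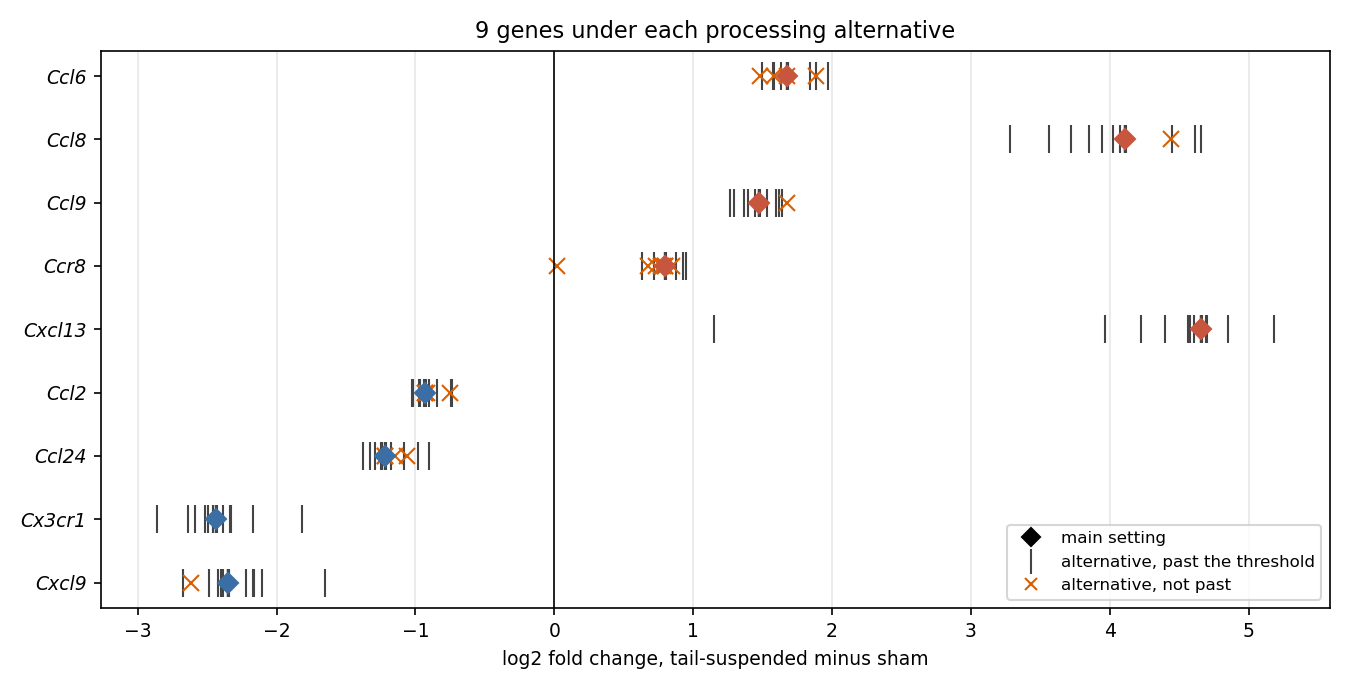
Log2 fold change (x axis, tail-suspended minus sham) of the 9 genes past the threshold under the main setting (diamonds) and each alternative (vertical marks where past the threshold, crosses where not). Cx3cr1 lies between -2.86 and -1.82 and has no cross, whereas Ccr8 has 8 crosses, 1 of them at 0.02.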

How the data were processed

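Total RNA of 3 sham and 3 tail-suspended mouse hearts was hybridised to 1-colour Agilent arrays. The authors deposited scanner output written by Agilent Feature Extraction (version 10.7.1.1 per the labels), with an intensity per spot before and after background correction, together with other columns that hold quality flags. A table of log2 values for these arrays, also deposited by the authors and close to quantile normalized, served as an alternative. The processed intensity was taken as log2 minus each array's 75th percentile over non-control spots in R 4.3.3. Outlier-flagged spots were left out, spots of a probe were averaged, and a probe was detected when at least 50% of its spots were well above background. Groups were compared by limma 3.58.1 without covariates (lmFit, eBayes), with Benjamini-Hochberg adjustment over all tested probes and a threshold of 0.05. The number of arrays limits the precision. The steps were tested on simulated data for tail-suspension against sham on 28002 probes, in which 86.3% of probes changed by 1 and 97.1% of those changed by 2 on the log2 scale were called. Only 200 probes were changed there, with independent normal noise, so these rates check the steps and are not the power of this comparison.

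Sequences and mm9 positions of probes are those of the deposited files. Promoter windows are those of RefSeq on GRCm38.p6, matched by symbol for 39 of 56 genes. Genes carry the names of the array design.

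The chemokine genes and the lists were chosen with earlier results of these data known. Named are the genes past the threshold, genes detected in every array of one group and none of the other, genes whose probes disagreed, their known partners, and list genes that passed, at most 4 a list. The other tested chemokine genes, and some list genes that did not pass, were added for completeness. Alternatives were normexp with an offset of 50, quantile normalization, other percentiles, filters and detection calls, the authors' log2 values, outlier spots kept, array weights, an intensity trend with robust eBayes, the methods' t-test, replicate and slide row blocks, another probe rule, a 2-fold minimum, and each array left out in turn. A block for slide or scan could not be fitted, since all arrays shared 1 of each. Some items are not reported here and are left out of the figures, but they stay in the fit and the counts.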

Additional observations from a re-analysis of the deposited data

How the results depend on the processing

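Cx3cr1 and Cxcl13 passed under all alternatives that gave a value, 19 and 18, of which the row block rests on 1 tail-suspended array. Cxcl13 entered the test only through the tail-suspended group, and it gave no value when detection on all 6 arrays was required. Ccl8, Ccl9 and Cxcl9 missed the threshold only with the slide row as a block (adjusted p = 0.0596, 0.0596 and 0.0536, limma). Ccl2, Ccl24 and Ccl6 each missed it under 4 alternatives and Ccr8 under 8, and none of the 9 changed direction. From 5 higher and 4 lower genes, the counts became 5 and 7 under normexp, 5 and 2 without a filter, and 3 and 2 by the t-test of the methods with adjustment. Calls also changed over the whole array, where the main fit had 3023 higher and 2683 lower of 28030 probes. These became 2477 and 2634 of 28030 under normexp, 1041 and 790 of 55681 without a filter, and 1533 and 1250 of 28002 by the t-test. Leaving out 1 array gave 3 to 7 higher and 3 to 5 lower genes, and 3 were higher without sham replicate 2 (Ccl8, Ccl9 and Cxcl13). Over all tested probes, 965 to 2931 rose and 726 to 2580 fell with 1 array left out, the fewest without sham replicate 2. The cause was not tested. Same-numbered samples shared only a number (correlations of their deviations -0.020, -0.018 and 0.050), and with the replicate block the same 5 and 4 genes passed.

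Members near 0 changed sign. Cxcl10 had -0.038 with quantile normalization, -0.10 with normexp, -0.035 with the authors' log2 values, -0.12 with the row block and -0.14 to 0.12 with 1 array left out. The first Cxcl11 probe had -0.028 with array weights, -0.093 with the row block and -0.051 to 0.089 with 1 array left out. Cxcr6 had -0.017 with normexp and -0.064 to 0.088 with 1 array left out. With the row block Cxcl12 had 0.074 and Ccr7 0.014. For genes near background, such as Ccr8 and Cxcr2, the signal over background limits what can be read.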
